A study of Mus musculus with 10 samples.

Results

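Monocyte and macrophage genes are 35 genes chosen by name from the surface receptors, adaptors and enzymes of these cells. Each was read from the probe set with a single gene symbol and the highest mean over all arrays. All 35 had such a probe set, among 18193 genes measured in the same way, and 16 of them had several. They were followed in mouse bone marrow cells sorted as lineage negative, Sca1 positive and cKit positive, the surface markers of haematopoietic stem and progenitor cells. Cells came from C57BL/6 mice aged 5 to 6 weeks. They were cultured with 10 ng/ml of interleukin-3, 20 ng/ml of interleukin-6 and 10 ng/ml of stem cell factor. MigR1 retrovirus was applied in 2 rounds 24 hours apart, and 25000 live cells positive for its green fluorescent marker were sorted 48 hours after the later round. The virus carried AML1/ETO (3 arrays), AML1/ETO with the W692A substitution (4 arrays, called W692A here) or the marker alone (3 arrays, called GFP here). AML1/ETO, also known as RUNX1-RUNX1T1, is the fusion protein of the t(8;21) translocation of acute myeloid leukaemia. W692A lies in the MYND domain, the part of ETO that binds the corepressors SMRT and N-CoR. The groups therefore address which changes the fusion brings about and which of them differ when this contact is altered. Expression is driven by the viral vector in cultured cells, so the groups share cytokine exposure, transduction and sort. Labels describe independent transductions but do not say if the mice differed. The p-values thus measure the spread between these samples.

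Monocytes and macrophages are phagocytes that arise from bone marrow progenitors under the growth factor CSF1, whose receptor is encoded by Csf1r. They sense microbes through Toll-like receptors, CD14 and C-type lectins, and antibody-coated particles through Fc receptors. Many of these receptors have no signalling tail and rely on the adaptors FcRgamma (Fcer1g) or DAP12 (Tyrobp), which recruit the kinase SYK through phosphorylated ITAM motifs. The transcription factors PU.1, C/EBP and RUNX1 act on many of these genes during myeloid differentiation, and RUNX1 supplies the DNA-binding domain of the fusion. In a sort for lineage-negative cells, mature monocytes are meant to be left out, so the signal is that of progenitors and of any maturing cells that share their surface markers.

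Clustered members went opposite ways, and their promoter windows are shown to compare where the core sequences that RUNX and PU.1 proteins are known to bind occur in them. Clec4d and Clec4e are adjacent coding genes on chromosome 6, and Clec4a2 lies near them, with Clec4b2 and Clec4n in between. On chromosome 1, Fcgr4 separates Fcgr2b from Fcgr3, and 7 coding genes separate Fcgr3 from Fcer1g. Each window runs from 250 bases before to 50 bases after a transcript start in RefSeq (GRCm38.p6) and is written 5′ to 3′ on the gene's strand. Capitals mark matches on either strand to the RUNX core TGTGGT (reverse complement ACCACA) or the PU.1 core GAGGAA (reverse complement TTCCTC).
Clec4d (chr6:123261857-123262156, plus strand): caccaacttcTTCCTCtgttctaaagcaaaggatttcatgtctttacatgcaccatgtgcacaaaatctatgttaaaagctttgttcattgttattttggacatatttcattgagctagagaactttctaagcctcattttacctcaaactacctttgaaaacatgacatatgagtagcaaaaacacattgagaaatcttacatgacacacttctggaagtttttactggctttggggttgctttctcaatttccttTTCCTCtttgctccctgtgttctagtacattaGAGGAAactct
Clec4e (chr6:123289822-123290121, minus strand): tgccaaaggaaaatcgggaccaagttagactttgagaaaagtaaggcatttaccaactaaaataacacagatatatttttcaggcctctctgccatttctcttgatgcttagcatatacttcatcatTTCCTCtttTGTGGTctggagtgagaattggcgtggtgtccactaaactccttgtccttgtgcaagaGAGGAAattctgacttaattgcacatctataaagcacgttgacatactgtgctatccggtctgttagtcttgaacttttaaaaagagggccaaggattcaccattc
Clec4a2 (chr6:123122440-123122739, plus strand): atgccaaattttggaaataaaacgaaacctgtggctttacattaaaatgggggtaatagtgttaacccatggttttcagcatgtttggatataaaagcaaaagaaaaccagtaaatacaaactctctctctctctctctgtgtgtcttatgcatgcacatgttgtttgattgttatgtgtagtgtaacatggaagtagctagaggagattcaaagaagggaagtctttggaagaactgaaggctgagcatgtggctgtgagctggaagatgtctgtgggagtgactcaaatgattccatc
Fcgr3 (chr1:171059354-171059653, minus strand): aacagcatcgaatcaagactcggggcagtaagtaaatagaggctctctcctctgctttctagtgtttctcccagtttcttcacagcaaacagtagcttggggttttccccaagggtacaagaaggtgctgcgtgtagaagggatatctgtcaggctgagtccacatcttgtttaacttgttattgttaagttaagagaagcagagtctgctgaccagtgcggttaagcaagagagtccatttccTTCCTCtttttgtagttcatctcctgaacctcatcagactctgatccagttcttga
Fcgr2b (chr1:170976022-170976321, minus strand): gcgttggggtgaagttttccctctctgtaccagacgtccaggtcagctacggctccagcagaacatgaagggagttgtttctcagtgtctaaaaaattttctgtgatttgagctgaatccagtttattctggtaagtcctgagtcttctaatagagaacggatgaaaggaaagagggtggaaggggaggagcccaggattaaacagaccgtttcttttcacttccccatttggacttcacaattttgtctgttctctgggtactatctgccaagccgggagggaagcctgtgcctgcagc
Fcer1g (chr1:171234300-171234599, minus strand): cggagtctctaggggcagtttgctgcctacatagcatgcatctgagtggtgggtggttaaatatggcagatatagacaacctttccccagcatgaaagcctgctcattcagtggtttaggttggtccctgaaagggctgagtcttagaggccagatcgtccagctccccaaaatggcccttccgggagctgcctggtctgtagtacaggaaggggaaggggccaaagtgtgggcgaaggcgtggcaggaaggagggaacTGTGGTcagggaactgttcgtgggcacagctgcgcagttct
The PU.1 core stood 3 times in the Clec4d window, 2 times in that of Clec4e and 1 time in that of Fcgr3. None was found in the windows of Clec4a2, Fcgr2b and Fcer1g. The RUNX core stood 1 time each in the windows of Clec4e and Fcer1g.

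Signals are deposited log2 intensities, so a difference of 1 is a 2-fold change. The array number limits precision. The brightest bacterial control probe set reached 2.04 on any array, and this was taken as the background bound. Of the 35 members, 21 lay above the bound on all 10 arrays, 4 on some (Cx3cr1, Fcer1g, Clec4a2 and Msr1) and 10 on none. Where the dimmer group had an array below the bound, such values were set to the bound and the fold is written as at least that size. Correlations between arrays were 0.982 to 0.992 within groups and 0.887 to 0.962 between groups. Kit, a sorted marker, read at or below the bound on every array, while Cd34 of progenitors was 2.91-fold higher with AML1/ETO and 2.67-fold higher with W692A than with GFP. Runx1t1, the mouse gene of ETO, exceeded the bound on all 3 AML1/ETO arrays and on no W692A or GFP array. Runx1, whose product gives the fusion its other portion, was 1.90-fold higher with AML1/ETO (adjusted p = 6.46e-05) and 2.11-fold higher with W692A (adjusted p = 3.04e-05) than with GFP, and W692A minus AML1/ETO was 0.15 on the log2 scale (adjusted p = 0.501). Both constructs carry ETO sequence, and which transcript its probe set reads was not determined. As a sign of RNA integrity, the Gapdh control signal at the 3′ end minus that at the 5′ end averaged 4.38 ± 0.573 with AML1/ETO (n = 3), 4.01 ± 0.168 with W692A (n = 4) and 4.93 ± 0.0889 with GFP (SD, n = 3). AML1/ETO replicate 3 stood apart at 5.04, where replicates 1 and 2 read 4.08 and 4.01. The W692A arrays (3.81 to 4.17) all lay below the GFP arrays (4.83 to 4.99), and of the AML1/ETO arrays replicate 3 alone did not. A fit with this difference as covariate thus cannot fully separate it from the contrast of W692A with GFP. Control probe sets for 18S ribosomal RNA averaged 8.40 ± 0.236 with AML1/ETO (n = 3), 8.76 ± 0.181 with W692A (n = 4) and 7.95 ± 0.196 with GFP (SD, n = 3) on the log2 scale, with GFP lowest and no overlap with either construct. The part of these control signals in the results was not tested beyond the Gapdh covariate given below. Values without AML1/ETO replicate 3 follow where that array decides a call, a direction or a size.

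With AML1/ETO, 12 members were higher and 8 lower than with GFP, and 15 did not pass (limma, adjusted p under 0.05). That is 57.1% of members in either direction, against 28.6% of all genes, 12.9% of them higher and 15.8% lower. Among genes above the bound on any array, 72.0% of 25 members were called (44.0% higher and 28% lower), against 51.4% of all (22.4% higher and 29.0% lower). The member median of the log2 difference was 0.03, against -0.02 over all genes. Without AML1/ETO replicate 3 the counts were 13 higher and 6 lower. Without GFP replicate 1 or without GFP replicate 3, 5 were lower.

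With W692A, 7 members were higher and 4 lower than with GFP, and 24 did not pass, with the GFP arrays shared between both comparisons. That is 31.4% of members, against 14.5% of all genes, 5.45% higher and 9.07% lower. Among genes above the bound on any array, 44.0% of members were called (28% higher and 16% lower), against 26.7% of all (9.94% higher and 16.7% lower). The median difference was 0.17 over members and 0.01 over all genes. All 991 higher and 1651 lower genes became 1262 and 1352 after further quantile normalization. With the Gapdh difference as a covariate, 4 members were higher and 2 lower. That difference did not overlap between W692A and GFP, so its part cannot be told apart from that of the construct.

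**Figure D1:**
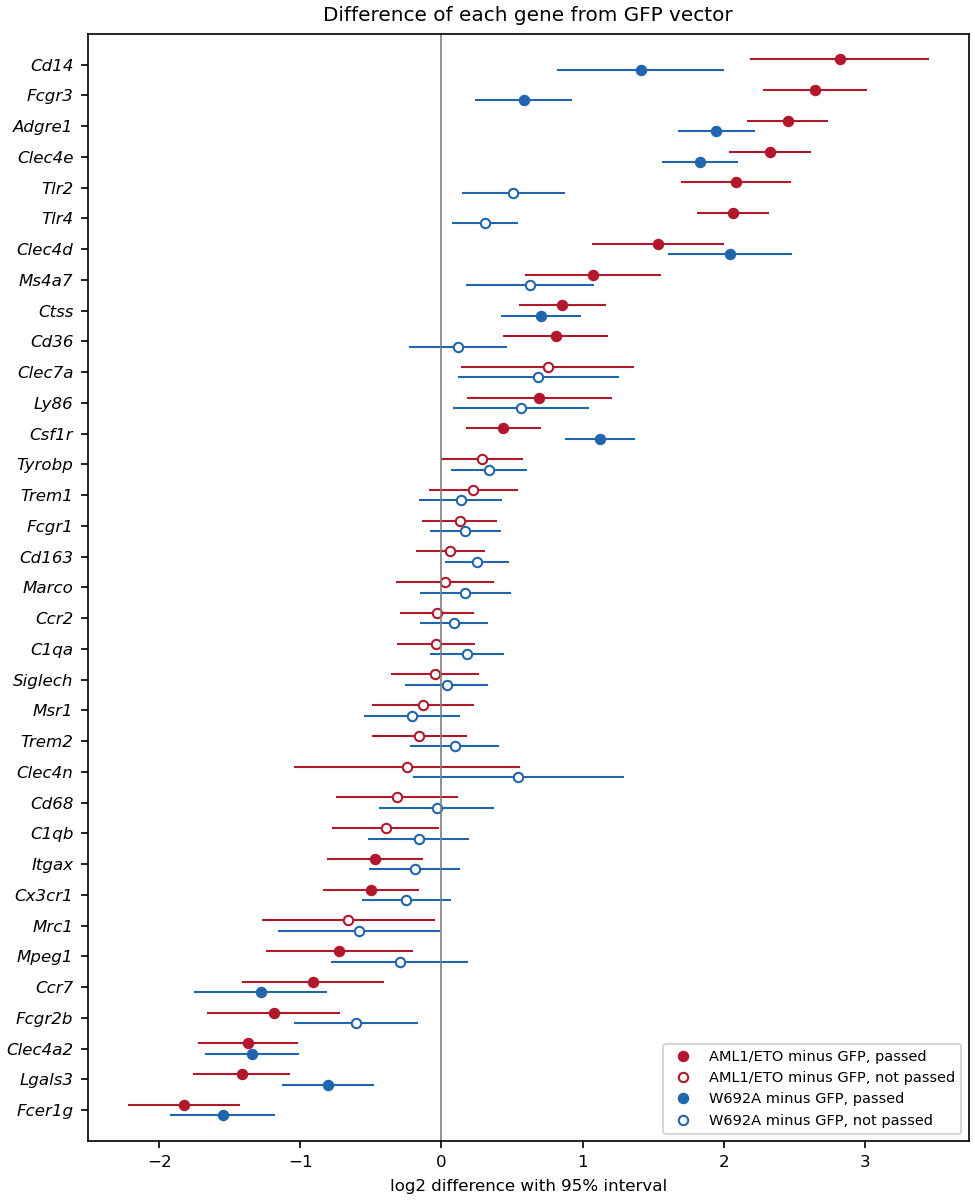
Log2 difference from GFP of each of the 35 genes (vertical axis, ordered by the AML1/ETO difference), with AML1/ETO in red and W692A in blue. Points are limma estimates and lines their 95% intervals, filled where the adjusted p was under 0.05. Values below the background bound are plotted as deposited. Cd14 stands at 2.82 with AML1/ETO and 1.41 with W692A, and Fcer1g at -1.82 and -1.55.

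Cells of other kinds could also lie within the gate, and their marker lists were read on the same arrays. Summed linear intensity over 11 stem and multipotent progenitor markers was 1177 to 1302 with AML1/ETO, 729 to 892 with W692A and 401 to 473 with GFP. Over 11 neutrophil markers it was 1611 to 2265 with AML1/ETO, 1340 to 1859 with W692A and 2097 to 2633 with GFP. The highest of these AML1/ETO sums was that of replicate 3, and the others were 1611 and 1723, both below every GFP array. Over 11 dendritic cell markers it was 833 to 1012 with AML1/ETO, 1091 to 1404 with W692A and 1395 to 1716 with GFP. These lists went different ways: with AML1/ETO 8 of the stem markers were higher and 1 lower, 1 of the neutrophil markers higher and 6 lower, and 0 of the dendritic markers higher and 6 lower. With W692A 7 of the stem markers were higher and 1 lower than with GFP. The neutrophil markers had 1 higher and 6 lower with W692A, and the dendritic markers 0 higher and 2 lower. Over 9 markers of mast cells, basophils and eosinophils the sum was 1599 to 3151 with AML1/ETO, 786 to 893 with W692A and 591 to 858 with GFP, and replicate 3 again held the highest AML1/ETO value (the others were 1856 and 1599). Its genes split, with 3 of 9 higher and 3 lower with AML1/ETO, and 2 higher and 3 lower with W692A. Over 6 erythroid markers the sum was 39 to 62 with AML1/ETO, 79 to 125 with W692A and 298 to 351 with GFP, with 0 higher and 4 lower for each construct. Over 5 megakaryocyte markers it was 773 to 812 with AML1/ETO, 270 to 389 with W692A and 213 to 303 with GFP, with 1 higher and 3 lower for each construct. All 7 T and NK lymphoid markers measured lay at or below the bound on every array. Of 7 B lymphoid markers, 2 exceeded it: Cd79b on all 10 arrays (5.1 to 6.1) and Vpreb1 on 1 array, GFP replicate 2. In that list 0 were higher and 1 lower for each construct. Over all genes, 12.9% were higher and 15.8% lower with AML1/ETO, and 5.45% and 9.07% with W692A. Sums of linear intensity follow the brightest genes of a list. Pf4 of megakaryocytes read 9.57 to 9.64 with AML1/ETO and 7.53 to 8.05 with GFP. The mean log2 value of that list was instead lower, at 2.97 to 3.05 with AML1/ETO and 3.39 to 3.73 with GFP. Cpa3 of mast cells read 10.17 to 11.08 with AML1/ETO and 7.26 to 7.62 with GFP. The part of these other cells in the results was not tested. The members' own sum was 2032 to 2357 with AML1/ETO, 2047 to 2374 with W692A and 1464 to 1836 with GFP. In sorted bulk RNA, fewer cells of a type and less RNA per cell cannot be told apart.

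Of the 6 Toll-like, CD14 and TREM receptors and partners, 4 were higher with AML1/ETO than with GFP and 0 lower. With W692A 1 was higher than with GFP, and 3 were lower than with AML1/ETO. These are 66.7%, 16.7% and 50.0% of the group, against 28.6%, 14.5% and 20.7% of all genes, so that the count for W692A against GFP is near the share of all genes. In this group 5 of the 6 genes exceeded the bound on any array. Among all genes that did so, 51.4%, 26.7% and 38.0% were called. Cd14, the co-receptor that hands lipopolysaccharide to TLR4, read 6.53, 6.34 and 5.22 with AML1/ETO, 5.06, 4.15, 4.73 and 4.53 with W692A, and 2.83, 3.29 and 3.50 with GFP. The groups did not overlap, with AML1/ETO highest and GFP lowest. Cd14 was 7.07-fold higher with AML1/ETO than with GFP (limma adjusted p = 3.17e-06) and 2.66-fold higher with W692A (adjusted p = 0.00278). Between the constructs it was 2.66-fold lower with W692A (adjusted p = 0.00176). AML1/ETO replicate 3 was the lowest of its group, and without it the rise with AML1/ETO was 9.36-fold. With the Gapdh difference as a covariate, the W692A difference from GFP was 0.37 on the log2 scale and did not pass (adjusted p = 0.782).

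Tlr4, the lipopolysaccharide receptor itself, read 4.65, 4.48 and 4.53 with AML1/ETO, 2.77, 2.81, 2.87 and 2.74 with W692A, and 2.33, 2.65 and 2.49 with GFP. It was 4.19-fold higher with AML1/ETO than with GFP (adjusted p = 5.80e-09), and W692A lay near GFP. W692A minus GFP was 0.31 (95% interval 0.07 to 0.54, adjusted p = 0.0805) and W692A was 3.38-fold below AML1/ETO (adjusted p = 5.62e-08). Tlr2, the receptor for bacterial lipopeptides, read 5.49, 5.55 and 4.92 with AML1/ETO, 3.78, 3.97, 3.50 and 3.71 with W692A, and 3.50, 2.97 and 3.24 with GFP. The AML1/ETO arrays lay above all others, and W692A and GFP touched at 3.50. Tlr2 rose 4.24-fold with AML1/ETO (adjusted p = 5.26e-07), and was 2.98-fold lower with W692A than with AML1/ETO (adjusted p = 1.11e-05). For W692A minus GFP the difference was 0.51 (95% interval 0.14 to 0.87, adjusted p = 0.0611), which passed without GFP replicate 1 (0.0471), AML1/ETO replicate 3 (0.0301) or W692A replicate 3 (0.0412).

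Ly86, which encodes MD-1, the secreted partner of the Toll-like protein RP105, read 5.59, 5.48 and 4.41 with AML1/ETO, 5.31, 5.15, 4.74 and 4.92 with W692A, and 4.53, 4.37 and 4.49 with GFP. AML1/ETO replicate 3 fell among the GFP arrays, while every W692A array lay above them. The rise with AML1/ETO was 1.62-fold (adjusted p = 0.0424) over all arrays and 2.10-fold without replicate 3 (adjusted p = 0.000176). It did not pass without AML1/ETO replicate 1 (0.204), AML1/ETO replicate 2 (0.184), any 1 of the GFP replicates (0.0819 for replicate 1, 0.120 for replicate 2 and 0.0839 for replicate 3), W692A replicate 2 (0.0526) or W692A replicate 4 (0.0552). With the Gapdh covariate it was 0.18 on the log2 scale (adjusted p = 0.707). The call was also lost with every probe set tested (0.0532), probe sets averaged per gene (0.0523), each array's median subtracted (0.0654) or only these 2 groups fitted (0.0587). W692A differed from GFP by 0.57 (95% interval 0.08 to 1.05, adjusted p = 0.119) and from AML1/ETO by -0.13 (adjusted p = 0.784). Without AML1/ETO replicate 3 both of these passed (0.0123 and 0.0386). Trem1, a receptor that amplifies Toll-like signals, was dim at 2.57 to 2.89 with AML1/ETO, 2.47 to 2.80 with W692A and 2.20 to 2.69 with GFP, and passed in no comparison. Trem2, a lipid-sensing receptor of tissue macrophages, was below the bound on every array.

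**Figure D2:**
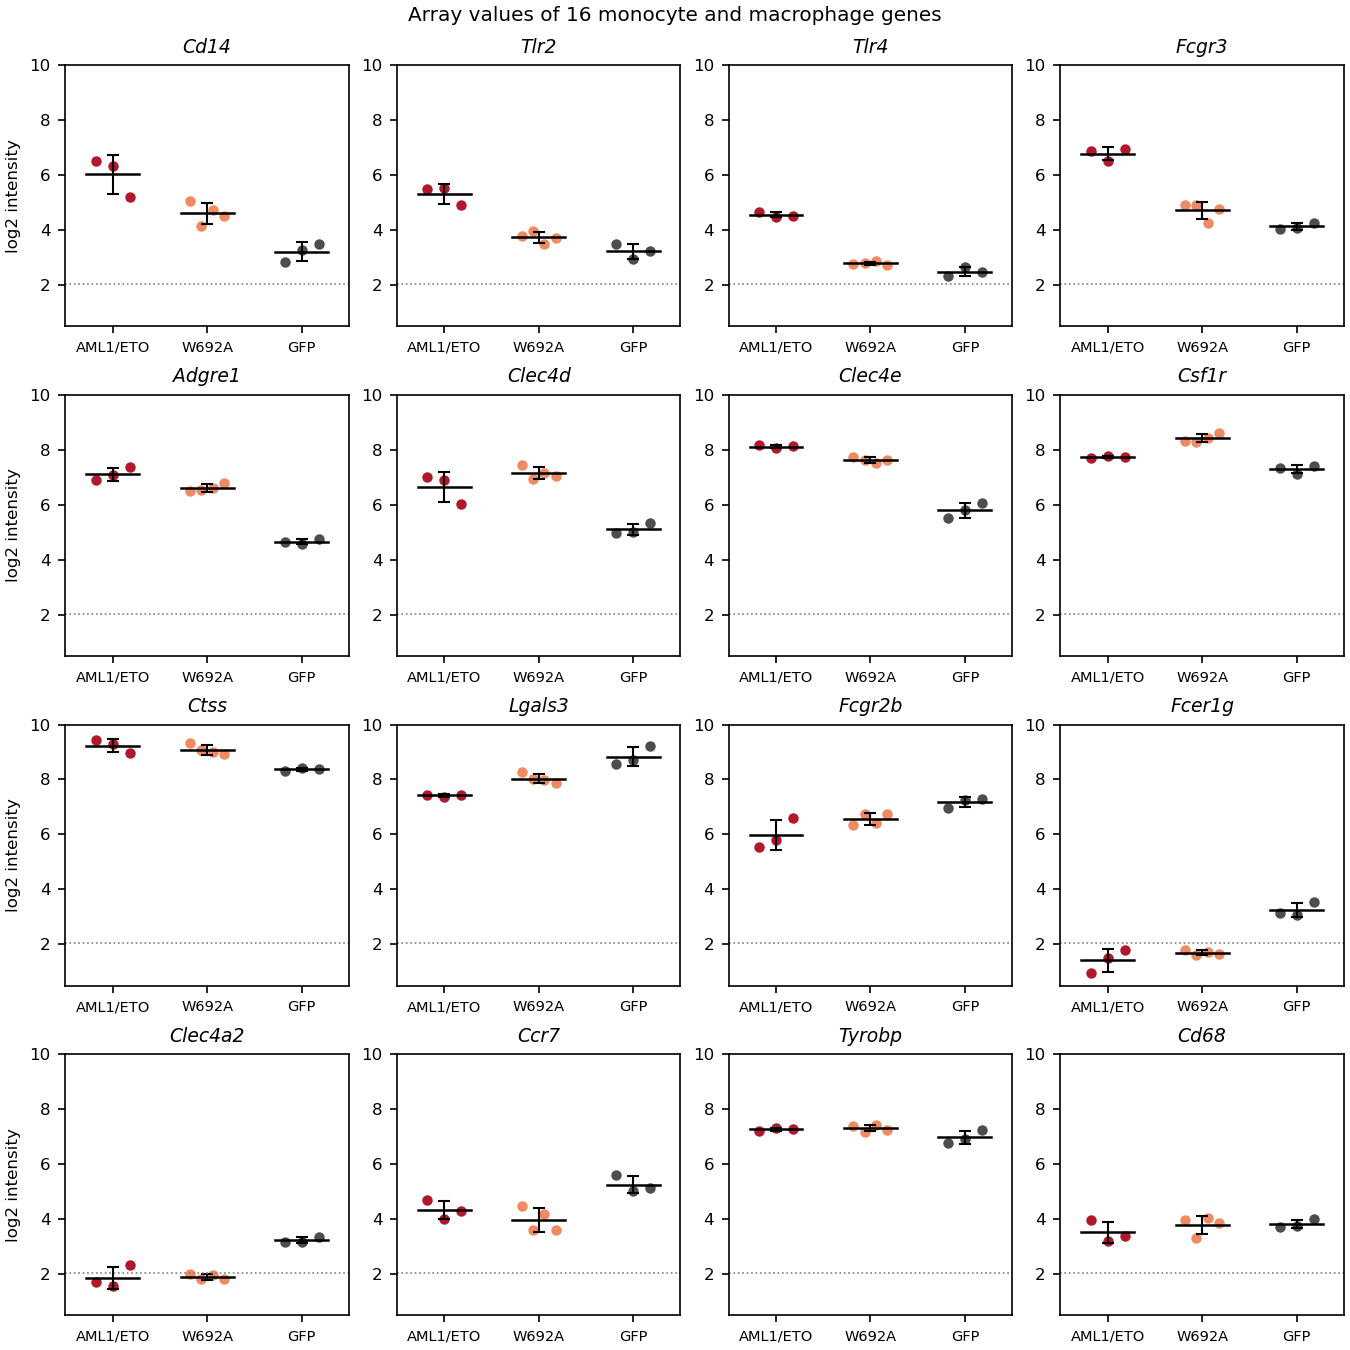
Log2 intensity of 16 of the genes on every array (points), with the mean and SD of each group (3 AML1/ETO, 4 W692A and 3 GFP arrays). The dotted line is the background bound of 2.04. Cd14, Tlr2, Tlr4 and Fcgr3 are highest with AML1/ETO, Csf1r is highest with W692A, and Fcer1g and Clec4a2 are highest with GFP.

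Fc receptors moved in opposite directions. Fcgr3, a low-affinity activating IgG receptor, read 6.86, 6.53 and 6.96 with AML1/ETO, 4.91, 4.91, 4.27 and 4.78 with W692A, and 4.06, 4.08 and 4.28 with GFP. AML1/ETO arrays stood far above the rest, while W692A replicate 3 fell within the GFP range. Fcgr3 was 6.27-fold higher with AML1/ETO than with GFP (adjusted p = 2.23e-08). W692A was 4.18-fold below AML1/ETO (adjusted p = 4.02e-07), the largest drop between the constructs among the 35 genes. Its 1.5-fold rise over GFP (adjusted p = 0.0235) did not pass without GFP replicate 1 (0.0951), GFP replicate 2 (0.0832), W692A replicate 1 (0.0569), W692A replicate 2 (0.0670) or W692A replicate 4 (0.0602), or with the Gapdh covariate (0.0646).

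Fcgr2b, the inhibitory IgG receptor, read 5.54, 5.80 and 6.60 with AML1/ETO, 6.34, 6.76, 6.40 and 6.76 with W692A, and 6.96, 7.24 and 7.30 with GFP. Every array of either construct lay below every GFP array. The fall with AML1/ETO was 2.28-fold (adjusted p = 0.000627), or 2.83-fold without replicate 3. W692A minus GFP was -0.60 (95% interval -1.04 to -0.16, adjusted p = 0.0652). It passed without AML1/ETO replicate 1 (0.0393) or replicate 3 (0.0110). W692A minus AML1/ETO was 0.59 (95% interval 0.15 to 1.03, adjusted p = 0.0576), and it passed without AML1/ETO replicate 3 (0.00133) or W692A replicate 1 (0.0464). Fcgr2b had 3 other probe sets above the bound, with AML1/ETO minus GFP differences of -1.06, -1.14 and -1.08 on the log2 scale.

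Fcer1g, the ITAM adaptor that Fcgr3 and several C-type lectins need at the surface, read 0.96, 1.5 and 1.8 with AML1/ETO, 1.81, 1.60, 1.73 and 1.64 with W692A, and 3.12, 3.07 and 3.55 with GFP. All arrays of the constructs lay below the bound and all GFP arrays above it. Fcer1g was thus at least 2.30-fold lower with AML1/ETO (adjusted p = 2.38e-06) and at least 2.30-fold lower with W692A (adjusted p = 2.28e-05). Its counterpart Tyrobp read 7.18 to 7.32 with AML1/ETO, 7.17 to 7.42 with W692A and 6.76 to 7.24 with GFP. For Tyrobp the difference from GFP was 0.29 with AML1/ETO (adjusted p = 0.142) and 0.34 with W692A (adjusted p = 0.0965). Without GFP replicate 3, the brightest GFP array for this gene, both passed (0.0268 and 0.0230). Fcgr1, the high-affinity IgG receptor of mature macrophages, was below the bound everywhere.

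**Figure D3:**
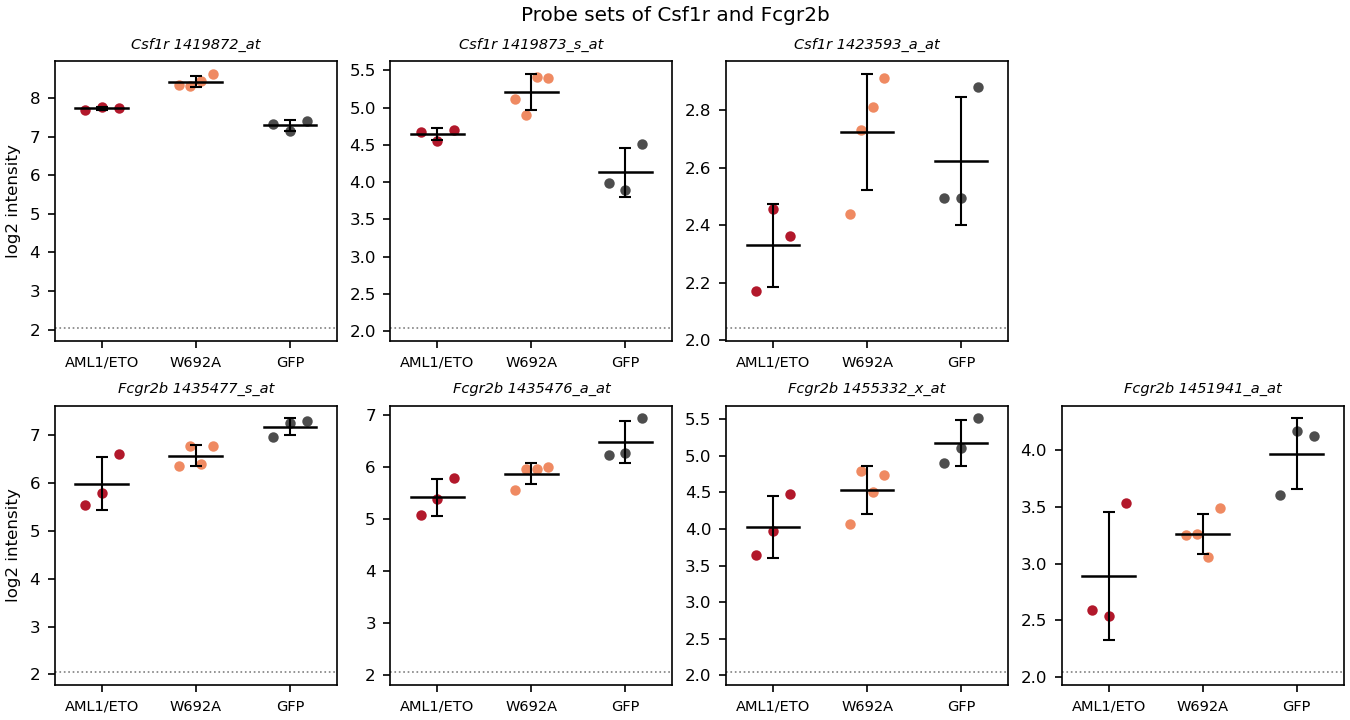
Log2 intensity on every array of the 3 Csf1r probe sets (top) and the 4 Fcgr2b probe sets above the background bound (bottom), with group means and SD, each panel on its own scale. The left panel of each row is the probe set used. All 4 Fcgr2b probe sets are lower with AML1/ETO than with GFP, while the dimmest Csf1r probe set is lower with AML1/ETO, unlike the other 2.

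C-type lectins of the chromosome 6 cluster also split. Clec4e, the receptor Mincle for mycobacterial cord factor, read 8.18, 8.05 and 8.13 with AML1/ETO, 7.76, 7.61, 7.51 and 7.63 with W692A, and 5.53, 5.80 and 6.05 with GFP. The groups were ordered AML1/ETO, W692A, GFP without overlap. The rise over GFP was 5.02-fold with AML1/ETO (adjusted p = 7.10e-09) and 3.56-fold with W692A (adjusted p = 1.87e-07), and W692A was 1.41-fold below AML1/ETO (adjusted p = 0.0112). Clec4d, its partner receptor MCL, read 7.01, 6.91 and 6.02 with AML1/ETO, 7.46, 6.95, 7.17 and 7.03 with W692A, and 4.99, 5.00 and 5.34 with GFP. Here W692A had the higher mean, although the construct groups overlapped. Clec4d rose 2.90-fold with AML1/ETO (3.60-fold without replicate 3) and 4.12-fold with W692A. W692A minus AML1/ETO was 0.51 (95% interval 0.07 to 0.95, adjusted p = 0.104), which passed without AML1/ETO replicate 1 (0.0447).

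Clec4a2, which encodes an inhibitory lectin (DCIR) of the same cluster, fell with both constructs, whereas Clec4d and Clec4e rose. It read 1.71, 1.55 and 2.31 with AML1/ETO, 1.98, 1.80, 1.96 and 1.81 with W692A, and 3.16, 3.17 and 3.36 with GFP. Of the construct arrays, AML1/ETO replicate 3 alone exceeded the bound, and all GFP arrays were higher. It was at least 2.14-fold lower with AML1/ETO (adjusted p = 1.30e-05) and at least 2.28-fold lower with W692A (adjusted p = 3.07e-05, or 0.0583 with the Gapdh covariate). Clec4n, the Dectin-2 gene that lies next to Clec4d, read 4.96, 4.44 and 3.12 with AML1/ETO, 4.47 to 5.63 with W692A, and 4.10 to 4.59 with GFP, and passed in no comparison. AML1/ETO replicate 3 again stood apart. Without it, AML1/ETO minus GFP was 0.28 (adjusted p = 0.599) in place of -0.24 (0.732), and W692A minus AML1/ETO was 0.26 (0.646) in place of 0.79 (0.143). With the Gapdh covariate, AML1/ETO lay below GFP for Clec4n (log2 difference -1.16, adjusted p = 0.00663), and without AML1/ETO replicate 1 it was higher with W692A than with AML1/ETO (adjusted p = 0.0281).

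Clec7a, the beta-glucan receptor Dectin-1, read 6.04, 5.39 and 5.20 with AML1/ETO, 5.13 to 5.99 with W692A, and 4.25, 4.66 and 5.47 with GFP. All 7 construct arrays were above the GFP mean of 4.79, but GFP replicate 3 lay among them. The difference from GFP was 0.75 with AML1/ETO (95% interval 0.14 to 1.36, adjusted p = 0.0640) and 0.69 with W692A (95% interval 0.12 to 1.26, adjusted p = 0.108). Without GFP replicate 3 both passed (0.00612 and 0.0149), and the AML1/ETO difference also passed without AML1/ETO replicate 3 (0.0411) or W692A replicate 1 (0.0443). Mrc1, the mannose receptor, read 3.72, 3.8 and 3.6 with AML1/ETO, 4.41, 4.09, 2.77 and 3.87 with W692A, and 4.31, 4.55 and 4.24 with GFP. AML1/ETO lay below GFP on every array, by 0.66 on average (adjusted p = 0.111). It passed without W692A replicate 3 (0.00303), the array with the lowest value, and W692A minus GFP passed without W692A replicate 1 (0.0484).

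Among growth factor and chemokine receptors, Csf1r was highest with W692A. It read 7.69, 7.78 and 7.73 with AML1/ETO, 8.33, 8.29, 8.44 and 8.62 with W692A, and 7.33, 7.14 and 7.41 with GFP. No group overlapped another. The rise over GFP was 2.18-fold with W692A (adjusted p = 9.62e-06) and 1.35-fold with AML1/ETO (adjusted p = 0.0137), and W692A was 1.61-fold above AML1/ETO (adjusted p = 0.000529). The smaller AML1/ETO rise did not pass without GFP replicate 2 (0.0667), with the Gapdh covariate (0.0701) or with the mean of the gene's probe sets (0.259). A dimmer Csf1r probe set (2.17 to 2.46 with AML1/ETO and 2.49 to 2.88 with GFP) went the other way, by -0.29 on the log2 scale (adjusted p = 0.213 over all probe sets). On it W692A minus GFP was 0.10 (adjusted p = 0.758) and W692A minus AML1/ETO 0.39 (adjusted p = 0.0760), neither of which passed. The third Csf1r probe set was higher with AML1/ETO by 0.51 (adjusted p = 0.0452 over all probe sets).

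Ccr7, a chemokine receptor that guides cells to lymph nodes, read 4.69, 4.01 and 4.28 with AML1/ETO, 4.46, 3.61, 4.18 and 3.58 with W692A, and 5.59, 5.01 and 5.13 with GFP. Both constructs lay below GFP on every array. The fall was 1.88-fold with AML1/ETO (adjusted p = 0.00775, or 0.0504 without GFP replicate 1) and 2.43-fold with W692A (adjusted p = 0.00104). Cx3cr1, the fractalkine receptor of patrolling monocytes, exceeded the bound on 1 array only, GFP replicate 2 at 2.17. It read lower with AML1/ETO (adjusted p = 0.0269), with no fold defined, and the call was lost without AML1/ETO replicate 1 (0.0506), AML1/ETO replicate 2 (0.107), GFP replicate 2 (0.144) or GFP replicate 3 (0.0524). Ccr2, which marks inflammatory monocytes, lay below the bound on every array.

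Surface markers of the lineage were led by Adgre1, the gene of the F4/80 antigen by which mouse macrophages are stained. It read 6.90, 7.07 and 7.36 with AML1/ETO, 6.49, 6.55, 6.60 and 6.79 with W692A, and 4.65, 4.59 and 4.74 with GFP. Adgre1 was 5.47-fold higher with AML1/ETO (adjusted p = 4.06e-09) and 3.86-fold higher with W692A (adjusted p = 1.01e-07), without overlap. W692A was 1.42-fold below AML1/ETO (adjusted p = 0.00972). That last difference did not pass without AML1/ETO replicate 3 (0.0658) or with the Gapdh covariate (0.0716). Ms4a7, a tetraspanning membrane protein of macrophages, read 3.85, 3.28 and 3.40 with AML1/ETO, 3.04, 2.54, 3.67 and 3.00 with W692A, and 2.24, 2.55 and 2.52 with GFP. It rose 2.11-fold with AML1/ETO (adjusted p = 0.00180). W692A lay in between, with a difference from GFP of 0.63 (95% interval 0.18 to 1.08, adjusted p = 0.0615) that passed without W692A replicate 2 (0.0145). Without W692A replicate 3, Ms4a7 was lower with W692A than with AML1/ETO (adjusted p = 0.0165).

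Cd68, the macrophage form of a lysosomal membrane glycoprotein, did not follow Adgre1. It read 3.96, 3.21 and 3.37 with AML1/ETO, 3.96, 3.32, 4.05 and 3.85 with W692A, and 3.73, 3.75 and 4.00 with GFP. The groups overlapped, and the difference from GFP was -0.31 with AML1/ETO (95% interval -0.75 to 0.12, adjusted p = 0.318) and -0.03 with W692A (95% interval -0.44 to 0.37, adjusted p = 0.943). Itgax, the CD11c integrin chain, lay below the bound on every array. Its lower AML1/ETO reading (adjusted p = 0.0386) was lost without 1 of 5 arrays, namely GFP replicate 1 (0.150), GFP replicate 3 (0.102), AML1/ETO replicate 1 (0.0925), AML1/ETO replicate 3 (0.139) or W692A replicate 4 (0.0523). Siglech, a lectin of plasmacytoid dendritic cells and microglia, was below the bound throughout.

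Scavenger receptors were at background. Msr1, a receptor for modified lipoprotein, exceeded the bound on 1 array, GFP replicate 3 at 2.08. Cd163, the haemoglobin scavenger, and Marco, a receptor for unopsonised particles, lay below it on every array, as did Cd36, a receptor for fatty acids and oxidised lipoprotein. Cd36 read 1.67, 1.19 and 0.97 with AML1/ETO, 0.71, 0.84, 0.48 and 0.31 with W692A, and 0.46, 0.54 and 0.40 with GFP. It was called higher with AML1/ETO than with GFP (adjusted p = 0.00203, or 0.0545 with the Gapdh covariate) and lower with W692A than with AML1/ETO (adjusted p = 0.00620). Since both groups of each pair were at background, no fold is given.

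Secreted, lysosomal and pore proteins differed from each other. Ctss, the lysosomal protease cathepsin S, was the brightest member with either construct, while Lgals3 was brighter on every GFP array. Ctss read 9.44, 9.29 and 8.97 with AML1/ETO, 9.33, 9.06, 9.0 and 8.92 with W692A, and 8.32, 8.43 and 8.38 with GFP. Every construct array lay above every GFP array. The rise was 1.81-fold with AML1/ETO (adjusted p = 0.000266) and 1.63-fold with W692A (adjusted p = 0.00227, or 0.536 with the Gapdh covariate). Lgals3, which encodes galectin-3, a lectin abundant in macrophages, read 7.45, 7.36 and 7.45 with AML1/ETO, 8.28, 8.0, 7.99 and 7.86 with W692A, and 8.57, 8.70 and 9.23 with GFP. Its order was the reverse of that of Cd14, with GFP highest and no overlap. Lgals3 fell 2.67-fold with AML1/ETO (adjusted p = 7.41e-06) and 1.74-fold with W692A (adjusted p = 0.00216, or 0.200 with the Gapdh covariate). W692A was 1.53-fold above AML1/ETO (adjusted p = 0.00867).

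Mpeg1, the pore-forming perforin-2 of phagocytes, read 4.24, 3.57 and 3.30 with AML1/ETO, 4.5, 4.29, 3.56 and 4.17 with W692A, and 4.66, 4.21 and 4.41 with GFP. AML1/ETO replicate 1 overlapped the GFP range. The fall of 1.65-fold with AML1/ETO (adjusted p = 0.0356) was lost without GFP replicate 1 (0.144), GFP replicate 3 (0.0759), AML1/ETO replicate 2 (0.117) or AML1/ETO replicate 3 (0.166). W692A minus AML1/ETO was 0.43 (adjusted p = 0.237), and passed without AML1/ETO replicate 1 (0.0428) or W692A replicate 3 (0.0474). C1qa and C1qb, chains of the complement component C1q made by tissue macrophages, lay below the bound on every array. C1qb passed at background as lower with AML1/ETO without W692A replicate 2 (0.0415).

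Set directly against AML1/ETO, W692A had 2 members higher (Csf1r and Lgals3) and 7 lower (Fcgr3, Tlr4, Tlr2, Cd14, Cd36, Adgre1 and Clec4e), and 26 did not pass. That is 25.7% of members, against 20.7% of all genes, 9.61% of them higher and 11.1% lower. Among genes above the bound on any array it was 32.0% of members (8.0% higher and 24.0% lower), against 38.0% of all (18.1% higher and 19.9% lower). The share called was thus near that of all genes on the one count and below it on the other. All 1748 higher and 2017 lower genes became 2220 and 1682 when each array's median was subtracted. Without AML1/ETO replicate 1, 5 members were higher. Without AML1/ETO replicate 3, 3 were higher and 7 lower.

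**Figure D4:**
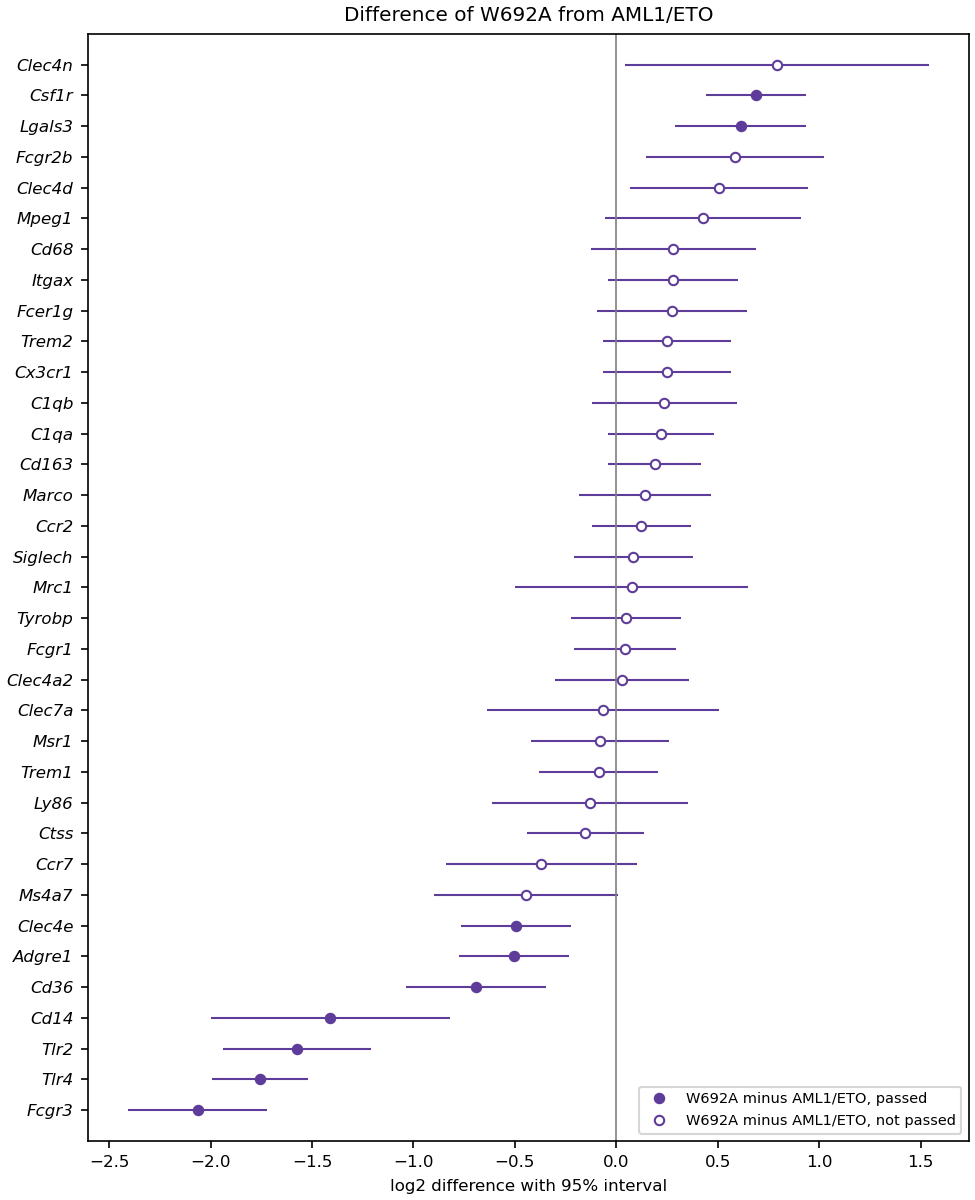
Log2 difference of W692A minus AML1/ETO for each of the 35 genes (vertical axis, ordered by the difference), with limma estimates as points and 95% intervals as lines, filled where the adjusted p was under 0.05. Values below the background bound are plotted as deposited. Fcgr3 stands lowest at -2.06, and Csf1r at 0.69 is the highest that passed.

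Other genes of monocyte biology were read from 7 lists. Over all genes, 28.6% were called with AML1/ETO and 14.5% with W692A against GFP, and 20.7% between the constructs. Of genes above the bound on any array, 51.4%, 26.7% and 38.0% were called. The growth factor axis had 66.7%, 44.4% and 66.7% of its 9 genes called. In the growth factor axis 5 of 9 genes were higher and 1 lower with AML1/ETO than with GFP, 4 higher and 0 lower with W692A, and 2 higher and 4 lower with W692A than with AML1/ETO. Csf1, the ligand of the Csf1r product, was 2.69-fold higher with AML1/ETO (adjusted p = 1.61e-05) and 2.05-fold lower with W692A than with AML1/ETO. Csf2rb2, a beta chain of the mouse interleukin-3 receptor, was 4.13-fold higher with AML1/ETO and 2.05-fold higher with W692A than with GFP, and 2.02-fold lower with W692A than with AML1/ETO. Il6ra, the interleukin-6 receptor chain, was at least 1.77-fold lower with AML1/ETO but 1.79-fold higher with W692A than with GFP, and at least 3.16-fold higher with W692A than with AML1/ETO. Csf3r, the G-CSF receptor, was 1.49-fold higher with W692A than with AML1/ETO.

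Of 13 monocyte transcription factors, 2 were higher and 4 lower with AML1/ETO than with GFP. With W692A 2 were higher and 4 lower than with GFP, and 4 higher and 0 lower than with AML1/ETO. The shares are 46.2%, 46.2% and 30.8%, against 28.6%, 14.5% and 20.7% of all genes. Of genes above the bound on any array, 51.4%, 26.7% and 38.0% were called. Cebpa, which encodes the C/EBPalpha factor of granulocytes and monocytes, was 8.04-fold lower with AML1/ETO (adjusted p = 7.95e-08) and 2.73-fold lower with W692A than with GFP, and thus 2.95-fold higher with W692A than with AML1/ETO. Batf3, a factor of dendritic cell development, was 3.19-fold lower with AML1/ETO and 3.42-fold lower with W692A. Zeb2 was 2.15-fold and Irf5 1.78-fold higher with AML1/ETO than with GFP. Irf8, which directs monocyte and dendritic fate, was 1.70-fold higher with W692A than with GFP, and Cebpb 1.80-fold higher with W692A than with AML1/ETO.

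Downstream of the receptors, 1 of 10 ITAM and ITIM signalling genes was higher and 4 lower with AML1/ETO, 1 higher and 1 lower with W692A than with GFP, and 2 higher and 1 lower with W692A than with AML1/ETO. The AML1/ETO count is 50.0% of the list, near the 51.4% of all genes above the bound on any array. The other counts are 20.0% and 30.0%, against 26.7% and 38.0% of such genes. The phospholipase gene Plcg2 was 2.27-fold lower with AML1/ETO (adjusted p = 6.83e-05) and 1.78-fold higher with W692A than with AML1/ETO. Vav1, a guanine nucleotide exchange factor, was at least 1.14-fold lower with AML1/ETO and at least 1.30-fold higher with W692A than with AML1/ETO. Blnk, an adaptor best known from B cells, was 2.18-fold higher with AML1/ETO than with GFP and 2.49-fold lower with W692A than with AML1/ETO. The kinase gene Syk was 1.65-fold lower (adjusted p = 0.00230) and Hcst, the adaptor DAP10, 1.36-fold higher with W692A than with GFP.

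In the list of further Toll-like receptors and their signalling, 4 of 17 genes were higher and 2 lower with AML1/ETO than with GFP. With W692A 0 were higher and 2 lower than with GFP, and 0 higher and 3 lower than with AML1/ETO. The shares are 35.3%, 11.8% and 17.6%, near the 28.6%, 14.5% and 20.7% of all genes. They lie below the 51.4%, 26.7% and 38.0% of genes above the bound on any array, which 9 of these 17 genes were. Tlr1, which pairs with TLR2, was at least 1.16-fold higher and Tlr7, a sensor of single-stranded RNA, at least 1.2-fold higher with AML1/ETO than with GFP, and both were lower by the same limits with W692A than with AML1/ETO. Tirap, the sorting adaptor of TLR2 and TLR4, moved against its receptors with AML1/ETO. For W692A against GFP neither Tlr2 nor Tlr4 passed, while Tirap did. Tirap was at least 2.13-fold lower with AML1/ETO (adjusted p = 1.91e-06) and at least 2.13-fold lower with W692A (adjusted p = 7.84e-05). Irak3, an inhibitor of this pathway, was 1.41-fold lower with AML1/ETO and at least 1.89-fold lower with W692A than with GFP.

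Chemokine and cytokine genes counted 5 higher and 1 lower of 15 with AML1/ETO than with GFP. With W692A 3 were higher and 3 lower than with GFP, and 1 higher and 7 lower than with AML1/ETO. The shares are 40.0%, 40.0% and 53.3%, against 28.6%, 14.5% and 20.7% of all genes. Of genes above the bound on any array, 51.4%, 26.7% and 38.0% were called. Il1b, the inflammatory cytokine interleukin-1 beta, was 8.19-fold higher with AML1/ETO (adjusted p = 1.11e-05) and 2.5-fold higher with W692A (adjusted p = 0.0158) than with GFP. Il1a, interleukin-1 alpha, was raised at least 2.84-fold with AML1/ETO over GFP and at least 2.84-fold lower with W692A than with AML1/ETO. Ccl2, a monocyte attractant, was 2.41-fold higher with W692A than with GFP. Il6 was 2.57-fold lower with W692A than with GFP and 4.29-fold lower than with AML1/ETO. The chemokine genes Ccl9 (1.98-fold, AML1/ETO) and Ccl6 (2.98-fold, W692A) were lower than with GFP.

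Lysosomal genes counted 9 higher and 2 lower of 17 with AML1/ETO than with GFP. With W692A 5 were higher and 1 lower than with GFP, and 1 higher and 9 lower than with AML1/ETO. The shares are 64.7%, 35.3% and 58.8%, against 51.4%, 26.7% and 38.0% of genes above the bound on any array. Lyz2, the lysozyme of myeloid cells, was 4.94-fold higher with AML1/ETO (adjusted p = 4.54e-07) and 1.94-fold higher with W692A than with GFP, and 2.54-fold lower with W692A than with AML1/ETO. Its paralog Lyz1 was 1.83-fold higher with W692A than with GFP, and cross-hybridisation between the paralogs was not tested. Ctsl, cathepsin L, was 3.84-fold higher with AML1/ETO than with GFP and 3.59-fold lower with W692A than with AML1/ETO. Ctsh, cathepsin H, was instead 3.58-fold lower with AML1/ETO and 2.06-fold lower with W692A than with GFP, and 1.74-fold higher with W692A than with AML1/ETO. Gusb, a lysosomal glucuronidase, was 1.32-fold lower with AML1/ETO.

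All called genes of the NADPH oxidase, the enzyme of the respiratory burst, were lower than with GFP: 4 of 5 with AML1/ETO and 2 of 5 with W692A. Ncf1, the p47phox subunit, was 3.90-fold lower with AML1/ETO (adjusted p = 7.25e-07) and 2.21-fold lower with W692A. Ncf4, the p40phox subunit, was 2.69-fold lower with AML1/ETO and 2.08-fold lower with W692A. Between the constructs 3 of the 5 were higher with W692A, Ncf1 by 1.77-fold and Rac2, a small GTPase of the complex, by 1.77-fold. The shares are 80.0%, 40.0% and 60.0%, against 51.4%, 26.7% and 38.0% of genes above the bound on any array. Neutrophils use the same enzyme, and the neutrophil marker sums are given above.

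**Figure D5:**
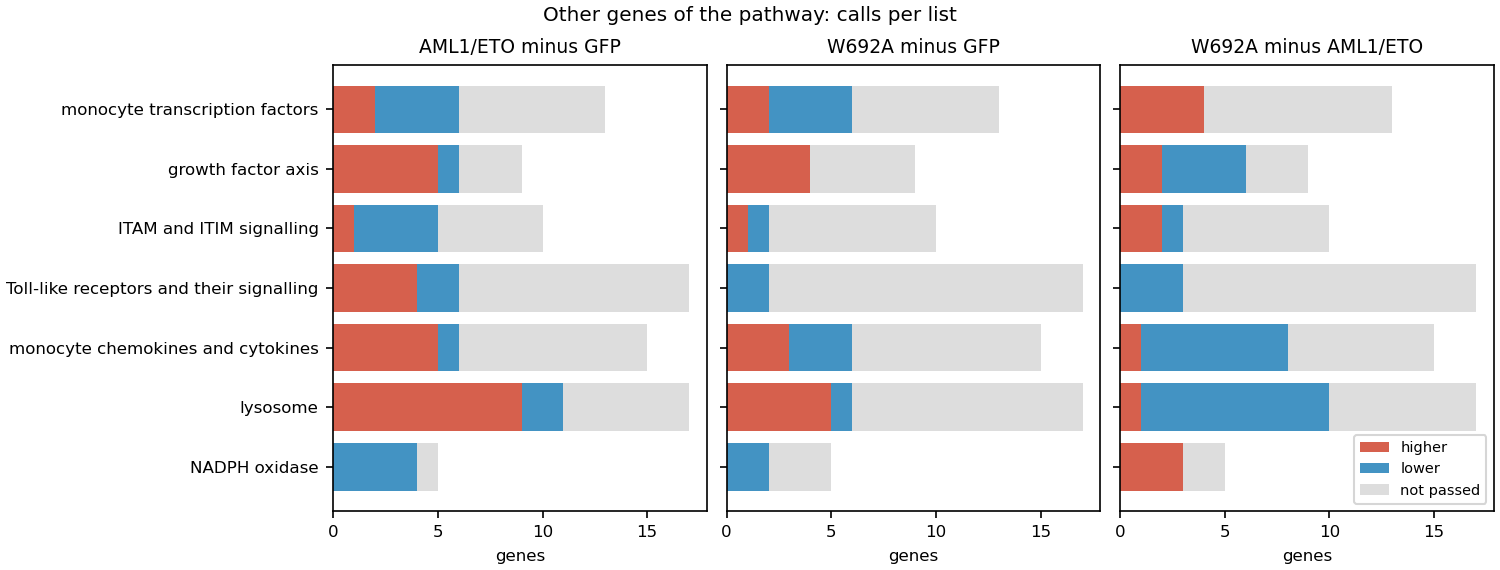
Number of genes higher, lower or not passed (horizontal axis) in each of the 7 lists, for AML1/ETO minus GFP, W692A minus GFP and W692A minus AML1/ETO from left to right. Over all genes, 28.6%, 14.5% and 20.7% passed in these comparisons, and 51.4%, 26.7% and 38.0% of genes above the bound on any array. The NADPH oxidase bars hold 0 higher genes against GFP, and the lysosome bar between the constructs holds 9 lower genes and 1 higher.

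Promoter windows were found for 26 of the 35 genes. The PU.1 core GAGGAA occurred on either strand in 14 of them (53.8%), against 31.3% of 27025 genes with a window. A gene with several windows counted where any of them held a match. By the AML1/ETO call, the PU.1 core occurred in 5 of 8 higher members with a window, 0 of 7 lower members and 9 of 11 members that did not pass. The RUNX core TGTGGT occurred in 5 (19.2%), against 18.9% of all genes. It was in 1 of 8 higher members (Clec4e), 3 of 7 lower members (Cx3cr1, Itgax and Fcer1g) and 1 of 11 of the rest (Siglech). The C/EBP motif TTGCNNAA occurred in 5 (19.2%, against 12.2%) and the AP-1 motif TGANTCA in 5 (19.2%, against 8.97%). The interferon-stimulated response element occurred in 2, Clec4d and Ctss (7.69%, against 3.99%). Matches of this length occur often, may overlap between motifs and say nothing of binding.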

How the data were processed

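Total RNA (50 ng per sample) was amplified in 2 rounds and labelled with biotin, 1 array per sample. The deposited values are log2 intensities made by the authors with RMA, per the submitters' processing notes, which give no version. RMA gives the probe intensities of all arrays 1 distribution, so differences in total RNA between groups are hidden. The values summarised per probe set need not share 1 distribution. The log base was inferred: the highest value, 12.77, stands for 6967 in base 2, but for 350219 if it were a natural logarithm, beyond the 65535 of a 16-bit scanner.

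Of 45101 probe sets, 35890 were listed in GEO's platform annotation, 34958 of them with 1 symbol (932 with several were not used). Symbols were updated through gene identifiers to GRCm38.p6 for 34741. The probe set with the highest mean stood for each gene. Differences were tested with limma 3.58.1 (R 4.3.3, lmFit and eBayes, 1 fit of 3 groups, 7 residual and 7.53 prior degrees of freedom), adjusted by Benjamini-Hochberg over 18193 genes, threshold 0.05. Python 3.11.15 made the figures and motif counts. The members, lists and rules were chosen with earlier results of these data known. All members are named; of each pathway list, up to 2 higher and 2 lower called genes without overlap between groups, largest difference first. Alternatives were filters on dim genes, probe set rules, normalizations, variance prior, 2-group fits, array weights, replicate block, Gapdh covariate, a 1.5-fold minimum and leaving out each array. Protein sequences and windows of the other members were not used here.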

Additional observations from a re-analysis of the deposited data

Results flagged for a closer look

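Of 35 genes tested in the 4 W692A arrays for a single array far from the rest, 1 was singled out: Cx3cr1 read 1.34 on W692A replicate 1, against 1.65 to 1.66 on the other 3. Its gap was 0.974 of the group's whole range. Chance singles out about 1 in 20 groups, and all 4 values lie below the background bound of 2.04.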

How the results depend on the processing

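The 6 counts of members were recomputed under 22 alternatives each. Of the 132 values, 127 stayed within 1.5 times the main count and 5 did not, and no called member reversed its direction. With the Gapdh difference as a covariate, W692A against GFP had 4 members higher and 2 lower, in place of 7 and 4. Since the Gapdh difference did not overlap between these groups, covariate results for W692A against GFP cannot tell it apart from the construct. When single arrays were left out, the members lower with AML1/ETO than with GFP ran between 5 and 9 (main 8), with the low value of 5 without GFP replicate 1 or 3. Those higher with W692A than with AML1/ETO ran between 2 and 5 (main 2), with 5 without AML1/ETO replicate 1. The cause was not tested. Of the 21 settings other than the fold minimum, each setting that tested a gene was counted. Called in every such setting were 13 of 20 members for AML1/ETO against GFP, 6 of 11 for W692A against GFP and 8 of 9 between the constructs. Cd36 is among these 8, although the filter on group means left it out because it lay below the bound. Over all genes, W692A against GFP had 991 higher and 1651 lower, which became 230 and 276 with the Gapdh covariate, 651 and 1123 without GFP replicate 1, and 574 and 1063 with a 1.5-fold minimum. That minimum left 987 higher and 1330 lower between the constructs, in place of 1748 and 2017. Whether the replicate numbers pair the arrays was not settled. Correlations of deviations ran from -0.13 to 0.46 between same-numbered arrays (median 0.01) and from -0.40 to 0.32 between other arrays (median -0.07). Replicate 1 arrays gave 0.29 (AML1/ETO with GFP), 0.46 (AML1/ETO with W692A) and 0.26 (GFP with W692A). Replicate 2 arrays gave -0.03, 0.01 and -0.03, and replicate 3 arrays -0.07, -0.13 and 0.34, in the same order. With the replicate block, 12 members were higher and 7 lower with AML1/ETO than with GFP, 6 and 5 with W692A, and 3 and 7 between the constructs. The block lost Itgax (adjusted p = 0.0531) and, for W692A against GFP, Fcgr3 (0.0702), and added Fcgr2b for W692A against GFP (0.0370) and Clec4n between the constructs (0.0480). Signals near the bound of 2.04 limit the 14 members not above it on all arrays.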
